A study of Mus musculus with 24 samples.

Results

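The glutamate uptake and glutamine cycle genes of sorted adult mouse astrocytes were followed as a set of 7 genes chosen by name: Slc1a2, Slc1a3, Glul, Glud1, Slc38a3, Slc38a1 and Slc1a4. All 7 were found among the 24421 gene names of every library, and all 7 passed the low-value filter of 20 normalised reads in at least 3 libraries, so that none was left out of a test. Their rows were read in 24 bulk RNA-seq libraries, 3 for each of 2 genotypes in olfactory bulb, hippocampus, cortex and brainstem. All mice were C57BL6 animals of 20 weeks and carried NFIAfl/fl, the floxed allele of the transcription factor gene Nfia, and the Aldh1l1-GFP reporter, by which astrocytes were sorted. Controls were NFIAfl/fl; Aldh1l1-GFP, and the other genotype, labelled as the knockout, was NFIAfl/fl; Aldh1l1-CreER; Aldh1l1-GFP, in which a tamoxifen-inducible Cre is directed to cells with Aldh1l1 promoter activity. Nothing in the labels says whether the 3 libraries of a group came from separate animals, so p-values measure the spread between these libraries, which may be technical.

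Astrocytes clear synaptically released glutamate through sodium-driven transporters of the Slc1 family. Inside the cell, glutamine synthetase joins glutamate with ammonia to form glutamine, or glutamate dehydrogenase feeds it into the tricarboxylic acid cycle. Glutamine leaves the astrocyte through Slc38 family carriers and is taken up by neurons, which make glutamate and GABA from it. NFIA is a member of the nuclear factor I family, which governs the onset of gliogenesis and binds a palindrome of facing half-sites or a single half-site.

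The 7 genes differ in their role and in where they lie (coordinates of mm10 with GENCODE release M21). The uptake transporters are Slc1a2 (GLT1; chromosome 2, 102658659 to 102790784, plus strand) and Slc1a3 (GLAST; chromosome 15, 8634124 to 8710764, minus strand). The enzymes are Glul, glutamine synthetase (chromosome 1, 153899944 to 153909723, plus strand), and Glud1, mitochondrial glutamate dehydrogenase (chromosome 14, 34310727 to 34345265, plus strand). The carriers are Slc38a3, which moves glutamine in either direction with sodium and protons and is the export route of astrocytes (chromosome 9, 107650634 to 107669530, minus strand), and Slc38a1, a sodium-coupled glutamine uptake carrier best known from neurons (chromosome 15, 96571418 to 96642913, minus strand). Slc1a4 belongs to the Slc1 family by sequence but exchanges serine, alanine and other neutral amino acids rather than glutamate (chromosome 11, 20302180 to 20332713, minus strand). Values are for whole genes. Glul overlaps Teddm2 on the opposite strand and Mir8114 on the same strand, Slc1a2 overlaps the antisense gene model Gm13872, and Slc1a3 overlaps the gene model Gm37310. Whether counting used the strand is not given, so reads of these neighbours cannot be told apart from those of the members.

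Promoter windows are shown because NFIA, the targeted factor, has a known binding sequence. Of the 7 members, 5 matched a RefSeq promoter entry on GRCm38.p6, and the 250 bases before the annotated start are printed for the 3 Slc1 family members and for Glul, 5′ to 3′ on the strand of the gene, with each nuclear factor I half-site in capitals, as TTGGC or, where it lies on the other strand, GCCAA. The windows are chr2:102706188-102706437 on the plus strand for Slc1a2, chr15:8710808-8711057 on the minus strand for Slc1a3, chr1:153899679-153899928 on the plus strand for Glul and chr11:20332714-20332963 on the minus strand for Slc1a4.
Slc1a2: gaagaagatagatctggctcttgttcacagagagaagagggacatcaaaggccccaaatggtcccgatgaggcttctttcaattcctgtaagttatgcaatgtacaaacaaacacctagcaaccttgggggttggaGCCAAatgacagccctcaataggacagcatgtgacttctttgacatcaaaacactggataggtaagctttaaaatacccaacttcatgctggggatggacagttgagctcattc
Slc1a3: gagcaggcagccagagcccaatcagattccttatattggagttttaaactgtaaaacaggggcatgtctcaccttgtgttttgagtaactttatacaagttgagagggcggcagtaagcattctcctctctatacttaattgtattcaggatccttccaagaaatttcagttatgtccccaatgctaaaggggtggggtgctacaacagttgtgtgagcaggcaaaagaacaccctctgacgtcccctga
Glul: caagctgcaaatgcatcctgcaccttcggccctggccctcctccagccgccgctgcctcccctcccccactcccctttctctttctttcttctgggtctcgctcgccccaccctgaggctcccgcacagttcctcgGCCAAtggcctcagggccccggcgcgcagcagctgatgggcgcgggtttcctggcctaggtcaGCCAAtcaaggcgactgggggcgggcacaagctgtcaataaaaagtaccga
Slc1a4: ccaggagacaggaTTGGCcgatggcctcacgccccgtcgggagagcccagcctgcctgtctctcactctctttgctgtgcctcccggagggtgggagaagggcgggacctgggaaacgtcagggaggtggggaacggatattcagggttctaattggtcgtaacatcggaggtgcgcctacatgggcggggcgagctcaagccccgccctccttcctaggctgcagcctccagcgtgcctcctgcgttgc
The Slc1a2 window held 1 half-site, 114 to 110 bases before the start, and lies inside the gene as GENCODE draws it. The Glul window held 2, at 114 to 110 and 51 to 47 bases before the start, and the Slc1a4 window held 1, at 237 to 233 bases. Slc1a3 and Glud1 held 0, and none of the 5 windows held the full palindrome, which is TTGGC and GCCAA with 5 bases between them. Among 32851 RefSeq promoters of the same length, 41.5% held at least 1 half-site, 11.5% at least 2 and 0.0365% the palindrome, counting both strands. These matches describe letters in a window and say nothing of binding.

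The depth and the labels of the libraries bear on every value that follows. Recovered reads ranged from 1090777 to 24297573 per library. Slc1a2 alone took 1.06% to 7.71% of the reads of a library. Slc38a1 had 75 to 1267 reads per library, the fewest of the members outside brainstem, where Slc1a4 had fewer in most libraries. Nfia, the targeted gene, was not lower in the libraries labelled knockout but higher in all 4 regions: 4528 ± 479 in controls and 8003 ± 566 normalised reads in olfactory bulb, 6216 ± 1495 and 11870 ± 1363 in hippocampus, 5081 ± 504 and 8367 ± 506 in cortex and 4627 ± 1347 and 9666 ± 806 in brainstem (SD, n = 3). Its whole-gene count cannot show a deleted exon, and every direction below rests on the deposited labels. The 20 astrocyte markers were detected in all groups and summed to 1.49% to 3.09% of reads. Choroid plexus markers, 10 in number, summed to 2.12% to 4.82% of reads in hippocampal controls against 0.0673% to 0.184% in hippocampal libraries labelled knockout, and to 1.24% to 6.34% against 0.134% to 2.39% in brainstem.

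Of the 7 members, 3 differed between the genotypes when the effect was averaged over the 4 regions. Slc1a3 and Slc38a3 rose and Slc38a1 fell in the libraries labelled knockout, while Slc1a2, the most abundant member, Glul, Glud1 and Slc1a4 did not pass. Within single regions the only call was the rise of Slc38a3 in hippocampus. A call means a Benjamini-Hochberg adjusted p under 0.05 over all 12670 genes tested, from limma on log2 of the deposited value plus 5. By that rule 5.87% of all genes were called in the average over regions, 2.79% higher and 3.09% lower, and in single regions 0.0868% in olfactory bulb, 2.51% in hippocampus (0.718% higher), 0.324% in cortex and 0.773% in brainstem. The 0 calls among members in olfactory bulb, cortex and brainstem stand beside 1, 2 and 3 members at an unadjusted p under 0.05 in limma. Of all 12670 genes, 659, 722 and 1922 had such a p in the same regions. The edgeR and DESeq2 fits also called 0 members in these 3 regions, and limma-voom called 0, 0 and 1. The median log2 fold change of the 7 members was -0.00, 0.35, 0.01 and 0.47 from olfactory bulb through hippocampus and cortex to brainstem, and 0.22 in the average, where the median of all genes was within 0.01 of 0 in each. The 20 astrocyte markers had medians of -0.05, 0.39, -0.17, 0.40 and 0.19 in the same order, close to those of the members. In the average 9 of the 10 choroid plexus markers and 4 of 6 tested ependymal markers, of 8 listed, were called lower, and 8 and 3 in hippocampus. Ependymal markers summed to 0.00473% to 0.00626% of reads in hippocampal controls and 0.000570% to 0.00154% in hippocampal libraries labelled knockout, with none at 0 throughout either group. Their part in the members' calls was not tested. In bulk samples fewer cells of a type and less RNA per cell cannot be told apart.

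**Figure D1:**
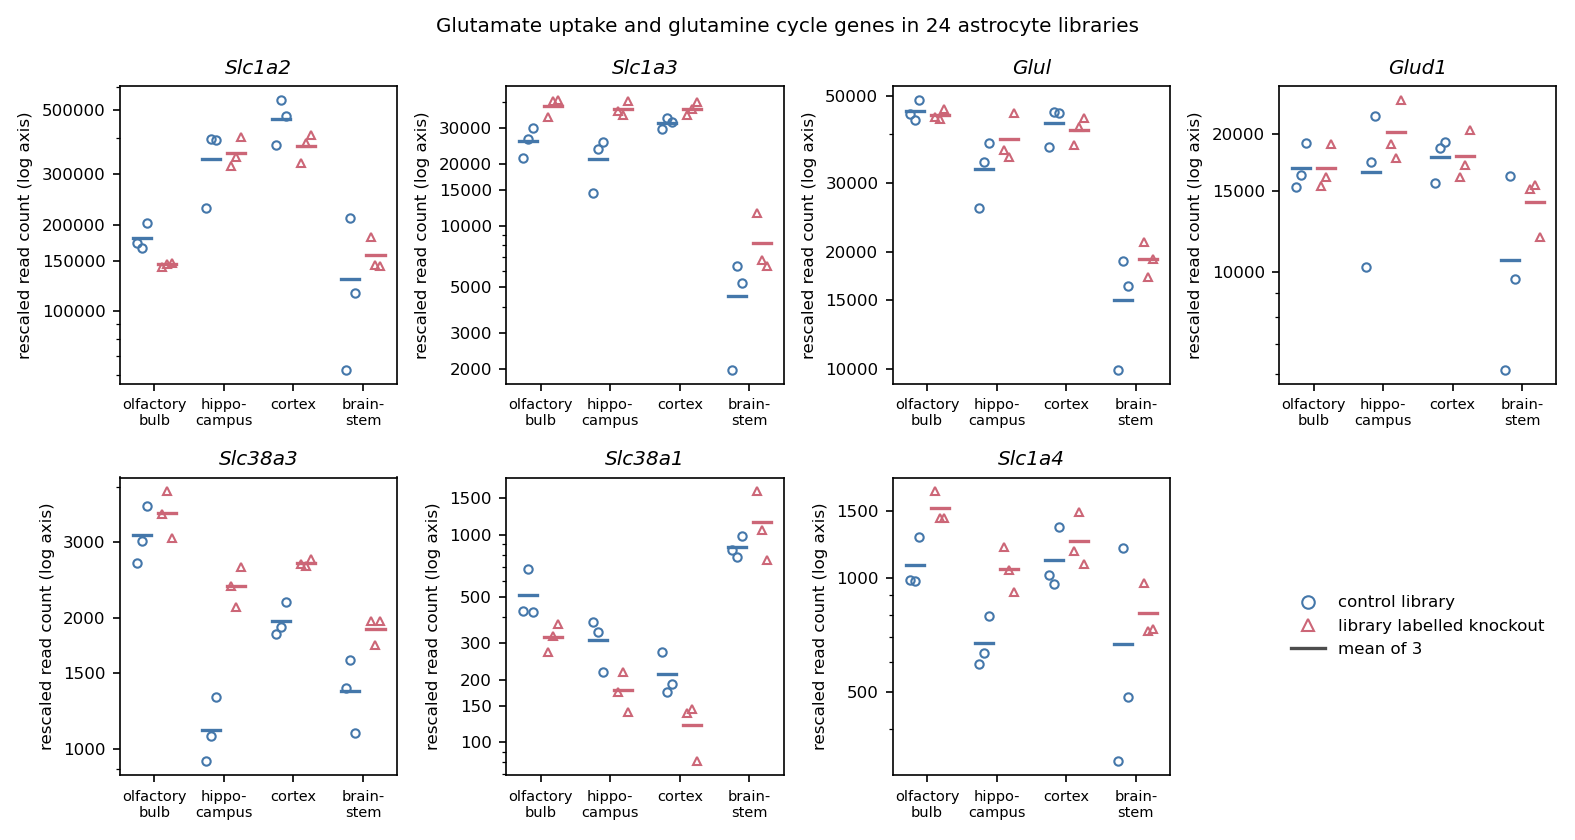
Read counts of the 7 genes, rescaled jointly over the 24 libraries, on log axes with 1 panel per gene. Circles are control libraries, triangles are libraries labelled knockout and bars are means of 3. Slc38a3 in hippocampus shows the control libraries well below those labelled knockout, whereas Glul and Glud1 overlap in every region.

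Slc1a2, the transporter that carries most glutamate uptake in the adult forebrain, had an average genotype difference near 0, over regional values of both signs. In olfactory bulb the control libraries had 172698, 166472 and 202454 normalised reads and the libraries labelled knockout 143301, 146661 and 147649. All 3 of the latter lay below all controls, as did 6.87% of all genes in that region. Cortical controls had 300043, 428616 and 375589 against 259085, 303905 and 326316, which overlapped. Hippocampal controls had 229794, 397147 and 393522 against 320389, 344545 and 403560, and brainstem controls 62889, 212036 and 116093 against 181968, 145493 and 143788. In both of these regions 1 control library was far below the other libraries and the groups overlapped. The log2 fold changes were -0.30 in olfactory bulb and in cortex, 0.10 in hippocampus and 0.43 in brainstem, none of them past the test. The average was -0.02 (SE 0.14, limma adjusted p = 0.970), and its 95% interval ran from -0.30 to 0.26. Over 13 other settings the average lay between -0.17 and -0.02.

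Slc1a3, the transporter that marks radial glia and is strongest in Bergmann glia of the cerebellum, was higher in the libraries labelled knockout. Its control libraries in olfactory bulb had 21403, 26534 and 30105 normalised reads and the libraries labelled knockout 33921, 40544 and 41365. In hippocampus these were 14519, 23700 and 25779 against 36536, 34703 and 40585, and in cortex 23482, 26537 and 25101 against 27356, 29241 and 31663. The groups did not overlap in any of these 3 regions, which held for 7.18%, 9.76% and 7.23% of all genes in that direction. Brainstem controls had 1989, 6409 and 5268 against 11572, 6805 and 6355, where the control with 6409 exceeded 1 library labelled knockout. The log2 fold changes were 0.96 in brainstem (adjusted p = 0.130), 0.85 in hippocampus (adjusted p = 0.170), 0.58 in olfactory bulb and 0.23 in cortex. None passed alone. Their average was 0.65 (SE 0.15, limma adjusted p = 0.0112), with a 95% interval of 1.27 to 1.96 as a fold change. The call held in each of the 24 fits that left out 1 library, with an adjusted p of at most 0.0257.

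The proportion of the 2 uptake transporters did not overlap between the genotypes in 3 of 4 regions. It was taken as a ratio within each library, which needs no scaling between libraries. In olfactory bulb there were 6.27 to 8.07 reads of Slc1a2 per read of Slc1a3 in controls and 3.57 to 4.22 in libraries labelled knockout. Hippocampus had 15.3 to 16.8 against 8.77 to 9.94, and cortex 12.8 to 16.2 against 9.47 to 10.4. The ranges did not overlap in these 3 regions. Brainstem had the highest ratios, 22.04 to 33.1 against 15.7 to 22.6, with overlapping ranges. The control mean was 1.85 times that of the libraries labelled knockout in olfactory bulb, 1.67 times in hippocampus and 1.45 times in cortex and in brainstem. A ratio within a library shows unequal change and not which of the 2 genes differed, and with 3 libraries against 3 it was given no test. How often the ratios of other gene pairs separate in this way was not counted.

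**Figure D2:**
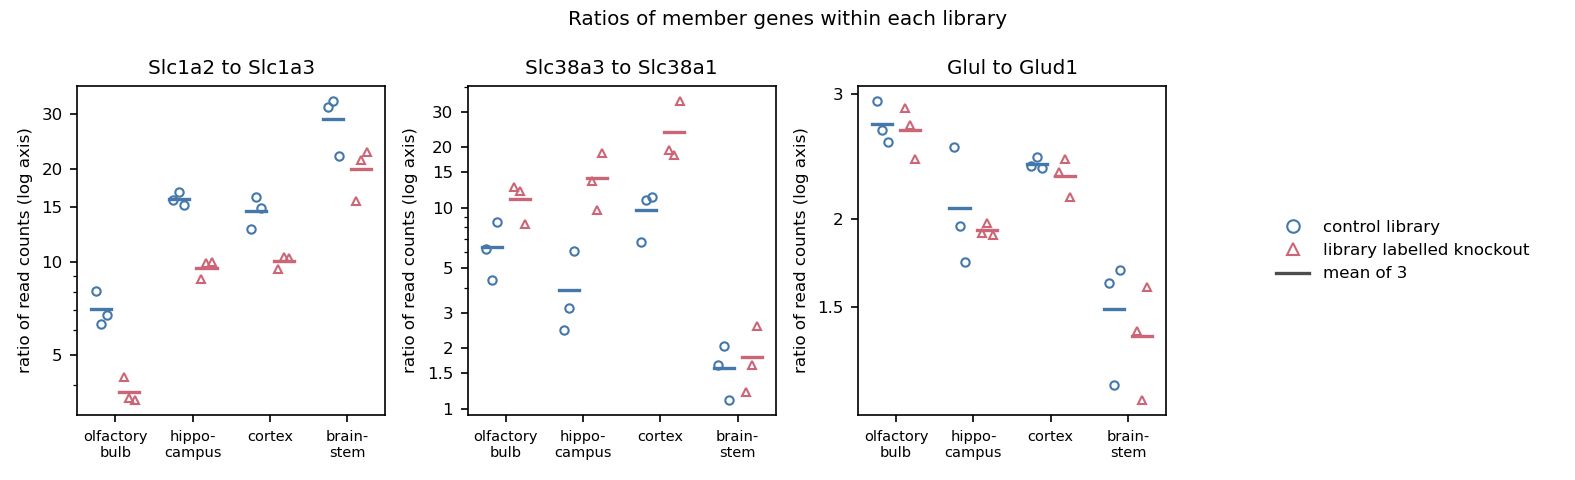
Ratios of read counts within each library, on log axes, by region and genotype. Circles are control libraries, triangles are libraries labelled knockout and bars are means of 3. The Slc1a2 to Slc1a3 ratio is lower in every library labelled knockout than in the controls of olfactory bulb, hippocampus and cortex, and the Glul to Glud1 ratio overlaps in all 4 regions.

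Glul, the enzyme that makes glutamine and is found in astrocytes rather than neurons, did not differ beyond the spread of the libraries. Olfactory bulb controls had 45014, 43541 and 49069 normalised reads against 44245, 43802 and 46398 in libraries labelled knockout. Hippocampal controls had 26048, 34056 and 38150 against 36501, 35148 and 45324, cortical ones 29386, 35878 and 35710 against 29708, 32943 and 34877, and brainstem ones 10009, 18982 and 16448 against 21205, 17251 and 19243. Both genotypes overlapped in every region, and control 1 was the lowest library of hippocampus and of brainstem. The average log2 fold change was 0.14 (SE 0.09, limma adjusted p = 0.447), with an interval of 0.968 to 1.26 as a fold change.

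Glud1, which oxidises glutamate to alpha-ketoglutarate in mitochondria, overlapped between the genotypes in every region as well. In olfactory bulb its values were 15363, 16353 and 19128 in controls and 15439, 16168 and 19107 in libraries labelled knockout, and in cortex 12395, 14689 and 15171 against 12753, 13589 and 16241. These 2 regions gave log2 fold changes of -0.00 and 0.01. Hippocampus had 10337, 17436 and 21935 against 19121, 17832 and 23881, and brainstem 6166, 16280 and 9708 against 15274, 15534 and 11991. As with Glul, control 1 was the lowest library in both. The average log2 fold change was 0.22 (SE 0.13, limma adjusted p = 0.385), with an interval of 0.970 to 1.39. The ratio of Glul to Glud1 within a library was 2.72 ± 0.19 in olfactory bulb controls and 2.67 ± 0.22 in libraries labelled knockout, and overlapped in the other 3 regions too (SD, n = 3).

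Slc38a3, the glutamine carrier of perivascular and perisynaptic astrocytes, had the clearest difference. Hippocampal controls had 942, 1074 and 1322 normalised reads, and the libraries labelled knockout 2381, 2136 and 2627, so that the lowest of the latter was well above the highest control. The means were 1113 ± 193 and 2381 ± 246 (SD, n = 3), a 2.14-fold higher level. The log2 fold change was 1.10 (SE 0.16, limma adjusted p = 0.000171), with an interval of 1.72 to 2.68 as a fold change. This call held in all 6 fits that left out a hippocampal library and in every other setting tried. The log2 fold change was smallest when values were scaled to the astrocyte markers (0.83, adjusted p = 0.0138). That scaling used median-of-ratios factors of 19 of the 20 markers, leaving out Gfap, and not their sum. All 20 summed to 74822, 107907 and 117985 normalised reads in the controls and 126569, 114677 and 137011 in the libraries labelled knockout. Of the 10 choroid plexus markers, 8 fell in the hippocampal libraries labelled knockout, with summed levels of 109496 to 227320 against 3631 to 9563 normalised reads and none at 0 throughout a group, and their part in the result was not tested.

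In the other regions Slc38a3 pointed the same way without passing. Cortical controls had 1456, 1503 and 1715 against 2111, 2088 and 2176, and brainstem controls 1394, 1612 and 1098 against 1984, 1741 and 1977. The groups did not overlap in either region, as was the case in that direction for 7.23% and 5.40% of all genes. Their log2 fold changes were 0.45 (adjusted p = 0.476) and 0.49 (adjusted p = 0.130). Olfactory bulb values, 2688, 3019 and 3632 against 3480, 3935 and 3075, overlapped, with a log2 fold change of 0.17. Averaged over regions Slc38a3 rose by 0.55 (SE 0.08, limma adjusted p = 4.07e-05), a fold change with an interval of 1.31 to 1.64, and no left-out library ended that call. The limma F test for a difference of the effect among regions gave an adjusted p of 0.276, so that the larger hippocampal value was not shown to differ from the others.

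Slc38a1, the other glutamine carrier, went the opposite way in 3 regions. Olfactory bulb controls had 433, 690 and 427 normalised reads and the libraries labelled knockout 274, 326 and 372, and cortical controls 216, 137 and 151 against 109, 115 and 64.2. In these 2 regions all libraries labelled knockout lay below all controls, as 6.87% and 7.21% of all genes did. Hippocampal controls had 381, 340 and 219 against 176, 219 and 140, where the highest of the latter reached the lowest control. Brainstem, where the gene was most abundant, had 849, 789 and 994 against 1634, 1061 and 764, with a wide spread in the libraries labelled knockout. The log2 fold changes were -0.64, -0.79, -0.78 and 0.33 in that order, and the average of -0.47 passed (SE 0.13, limma adjusted p = 0.0346). This call was the weakest of the 3. It was lost in 11 of 24 fits that left out 1 library, with an adjusted p of up to 0.0760. These were the fits without control 2 or labelled knockout 1 or 2 of olfactory bulb, control 1 or 2 or labelled knockout 1 or 3 of hippocampus, control 1 or labelled knockout 3 of cortex, and control 3 or labelled knockout 3 of brainstem. Without all brainstem libraries it was -0.74 (adjusted p = 0.00200), with scaling to the astrocyte markers -0.52 (adjusted p = 0.146), and without the low-value filter the adjusted p was 0.0823. The limma F test among regions gave an adjusted p of 0.559. Neuronal markers, 12 in number, summed to 0.0775% to 0.138% of reads over the groups and none of them was called in any genotype comparison. The 10 oligodendrocyte markers had median log2 fold changes of -0.44 in olfactory bulb, -0.18 in cortex, -0.71 in hippocampus and 0.20 in brainstem. In the average their median was -0.30, and 1 of them was called lower. The part of either list in the result was not tested.

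Slc38a3 thus had more reads per read of Slc38a1 in the libraries labelled knockout of hippocampus, 9.74 to 18.7 against 2.47 to 6.05 in controls, and of cortex, 18.2 to 33.9 against 6.74 to 11.3. Ranges overlapped in olfactory bulb, with 8.26 to 12.7 against 4.37 to 8.52, and in brainstem, with 1.21 to 2.59 against 1.10 to 2.04. The mean ratio of hippocampal libraries labelled knockout was 3.59 times that of controls and the cortical one 2.46 times. This ratio was given no test either, and separation in other gene pairs was not counted.

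Slc1a4, the neutral amino acid exchanger through which astrocytes are known to supply serine, came close to a call. Olfactory bulb controls had 989, 987 and 1282 normalised reads against 1700, 1447 and 1446 in the libraries labelled knockout, and hippocampal controls 596, 637 and 799 against 1210, 1057 and 922. The groups did not overlap in these 2 regions, as 7.18% and 9.76% of all genes did not in that direction. Cortex, with 805, 761 and 1073 against 929, 1183 and 865, and brainstem, with 330, 1206 and 489 against 974, 725 and 735, overlapped. The average log2 fold change was 0.45 (SE 0.14, limma adjusted p = 0.0686), higher in 4 of 4 regions. It passed with limma-voom (0.51, adjusted p = 0.00616), with scaling to astrocyte markers (0.40, adjusted p = 0.0372), without all brainstem libraries (0.44, adjusted p = 0.00275) and without control 2 of brainstem (0.58, adjusted p = 9.86e-05). These were 3 of 13 other settings and 1 of 24 fits that left out 1 library. In the rest it did not pass, with an adjusted p of up to 0.130 and 0.128.

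**Figure D3:**
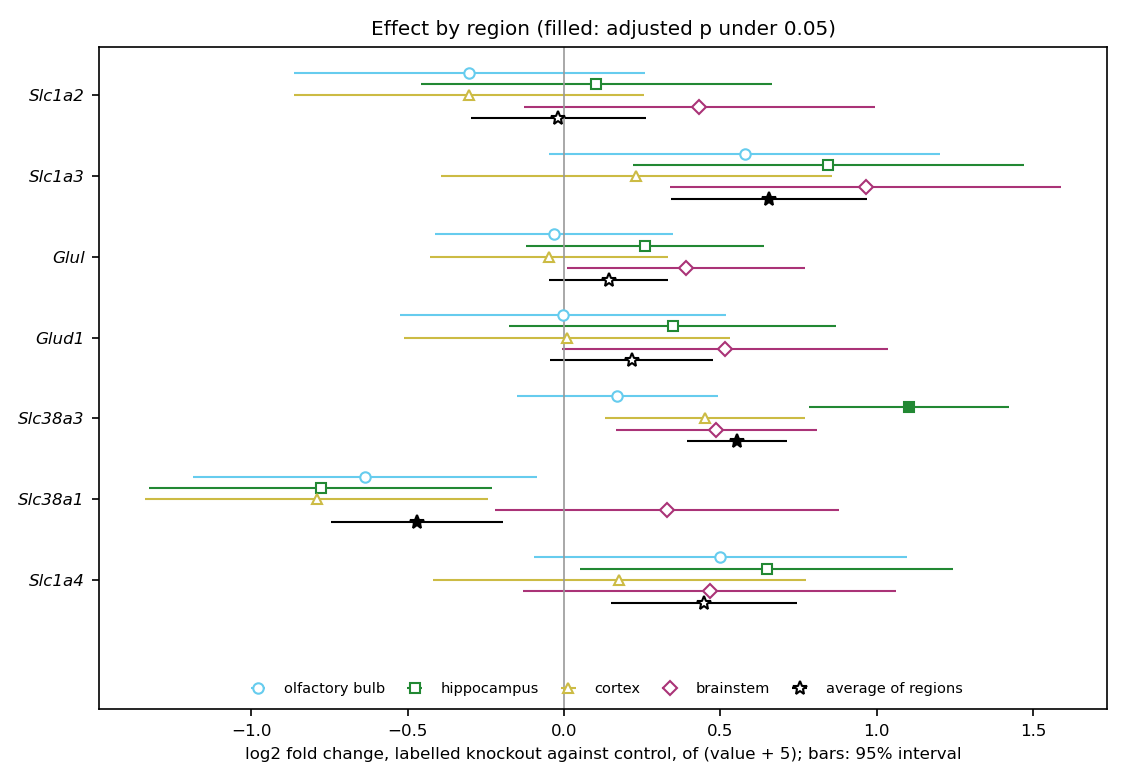
Log2 fold change of each gene, libraries labelled knockout against controls, in the 4 regions and in their average, with 95% intervals from limma on log2 of the value plus 5. Filled symbols passed an adjusted p of 0.05. Slc38a3 passes in hippocampus (1.10) and in the average (0.55), Slc1a3 (0.65) and Slc38a1 (-0.47) pass in the average, and no interval of Slc1a2 leaves 0.

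Brainstem values moved with control libraries 1 and 2. Control 2 had the highest control value of Slc1a2, Slc1a3, Glul, Glud1, Slc38a3 and Slc1a4, and control 1 the lowest of Slc1a2, Slc1a3, Glul, Glud1 and Slc1a4. Astrocyte markers summed to 88462, 183718 and 120269 normalised reads in controls 1 to 3 and to 198383, 159896 and 176838 in the libraries labelled knockout. Choroid plexus markers took 6.34%, 1.24% and 3.07% of reads in the same controls and 1.59%, 2.39% and 0.134% in the libraries labelled knockout. Without control 2 the brainstem comparison called 6 of the 7 members higher: Slc1a2 (0.87), Slc1a3 (1.29), Glul (0.58), Glud1 (0.87), Slc38a3 (0.62) and Slc1a4 (0.99). The same fit called 889 of 12615 genes, 593 or 4.70% of them higher, where 98 were called with all 6 libraries. Without control 1 it called 0 members and 17 genes, and the values of Slc1a2 (-0.0069) and Slc1a4 (0.0639) lay near 0. With all 6 libraries kept, the brainstem comparison called 0 members both as reported and when scaled to the astrocyte markers. That scaling was not run without control 2. The part of these markers in the result was not tested.

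A difference of the genotype effect among regions was called for 0 of the 7 members by the F test in limma, edgeR, DESeq2 and limma-voom, where 2 members had an unadjusted p under 0.05 in each, Slc38a1 and Slc38a3 in limma. Over all 12670 genes 0.0552% were called, and 924 had an unadjusted p under 0.05 in limma.

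Of 37 further genes of glutamate and glutamine handling, 35 were tested, and Gls2 and Slc17a8 were too low. In the average over regions 3 of the 35 were called, 1 higher and 2 lower, beside 5.87% of all genes, and in hippocampus 0 were higher and 1 lower, beside 2.51%. In the average over regions Aldh4a1, which makes glutamate from the proline breakdown product, rose by 0.41 (limma adjusted p = 0.0237), and Slc3a2, the heavy chain shared by several amino acid exchangers, fell by 0.26 (adjusted p = 0.0342). Neither passed with scaling to the astrocyte markers (adjusted p = 0.137 and 0.121), nor did Slc3a2 with the replicate number as a block (adjusted p = 0.0665). Olfactory bulb, cortex and brainstem gave 0 calls each in limma, with 1, 2 and 9 of the 35 at an unadjusted p under 0.05. In the same regions 659, 722 and 1922 of all 12670 genes had such a p. There edgeR and DESeq2 gave 0 calls as well, and limma-voom 0, 2 and 0. The median of the 35 genes was -0.13 in the average over regions.

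Partners of the transporters were read as a second list: proteins that act with or bind the transporters, and the potassium and water channels of astrocyte endfeet. Of 13 genes, 12 were tested, and Ajuba was too low. The average over regions called 2 of them higher and 1 lower, beside 2.79% and 3.09% of all genes. Hippocampus called 0 higher and 1 lower, beside 2.51% of all genes in either direction. Brainstem called 1 higher, beside 0.773% in either direction. In brainstem Aqp4, the endfoot water channel, rose from 14264 ± 6066 to 25977 ± 3281 normalised reads (SD, n = 3; log2 fold change 0.94, limma adjusted p = 0.0296), a call lost in edgeR (adjusted p = 0.109), without the low-value filter (0.0612) and with brainstem fitted alone (0.713). Averaged over regions Kcnj10, the inward rectifier that clears potassium, rose by 0.47 (adjusted p = 0.0191) and Aqp4 by 0.39 (adjusted p = 0.0251). For Aqp4 this call too was lost in edgeR (adjusted p = 0.0617) and without the low-value filter (0.0576). Olfactory bulb and cortex gave 0 calls in limma, edgeR, DESeq2 and limma-voom. In limma 0 of the 12 had an unadjusted p under 0.05 there, beside 659 and 722 of all 12670 genes.

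Control astrocytes of the 4 regions were compared on recovered reads rescaled jointly over all 24 libraries, because the cortical values carry another scaling. Per kilobase of exon Slc1a2 was the most abundant of the 7 in cortex, with 35501 ± 6317 rescaled reads, and in hippocampus, with 25793 ± 7259. Olfactory bulb had 13707 ± 1474 and brainstem 9872 ± 5732 (SD, n = 3). The step from hippocampus to olfactory bulb passed (1.88-fold, limma adjusted p = 0.0392), and those from cortex to hippocampus and from olfactory bulb to brainstem did not. Its call was lost in 5 of 6 fits that left out a library, with an adjusted p of up to 0.163: each olfactory bulb control and hippocampal controls 2 and 3. Cortex exceeded brainstem 3.60-fold.

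Slc1a3 had the widest range among regions, with a log2 difference of 2.97 between cortex and brainstem. Its level per kilobase was 3715 ± 236 rescaled reads in cortex, 3038 ± 514 in olfactory bulb and 2488 ± 700.1 in hippocampus, and 531 ± 268 in brainstem (SD, n = 3). No step among the first 3 regions passed, although all hippocampal controls lay below all cortical ones (log2 difference -0.62, limma adjusted p = 0.392). Hippocampus stood 4.69-fold above brainstem (limma adjusted p = 1.09e-05). Glul had 13764 ± 872 in olfactory bulb, 12829 ± 1449 in cortex and 9815 ± 1849 in hippocampus against 4533 ± 1386 in brainstem, 2.16-fold below hippocampus (adjusted p = 8.18e-05). All of its olfactory bulb controls lay above all hippocampal ones (log2 difference 0.50, adjusted p = 0.0902). This difference was called in 6 of 13 other settings that kept all libraries of both regions. Its adjusted p went down to 0.000284 under scaling to the astrocyte markers. Brainstem was thus the lowest region for 5 of the 7 genes, by mean level.

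Glud1 was the most even of the enzymes and transporters of glutamate, at 4237 ± 459 rescaled reads per kilobase in cortex, 4014 ± 466 in olfactory bulb, 3919 ± 1385 in hippocampus and 2532 ± 1214 in brainstem (SD, n = 3). No step between neighbours passed. Slc1a4 had 284 ± 55.0 in cortex, 276 ± 43.5 in olfactory bulb, 172 ± 27.3 in hippocampus and 171 ± 118 in brainstem, again with no step past the test.

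The glutamine carriers had their own orders. Slc38a3 was highest in olfactory bulb, at 588 ± 91.1 rescaled reads per kilobase, followed by cortex with 374 ± 34.1, brainstem with 258 ± 48.9 and hippocampus with 210.0 ± 36.6 (SD, n = 3). The first 2 steps passed (1.57-fold, limma adjusted p = 0.00658, and 1.45-fold, adjusted p = 0.0158). Without control 3 of olfactory bulb the first was lost (adjusted p = 0.0646), and the second without control 3 of cortex or control 3 of brainstem (up to 0.133). The second was also lost with total count scaling (adjusted p = 0.0890), with that scaling without Rn45s (0.0706) and with scaling to the astrocyte markers (log2 difference 0.19, 0.498). Slc38a1 had 50.6 ± 6.06 in brainstem, 29.9 ± 8.70 in olfactory bulb, 18.1 ± 4.88 in hippocampus and 12.3 ± 3.05 in cortex. It was the only member highest in brainstem, 1.69-fold above olfactory bulb (adjusted p = 0.0379). That step was lost without control 1 or 3 of olfactory bulb or control 1 or 3 of brainstem (up to 0.149), with total count scaling (-0.51, adjusted p = 0.200), with scaling to the astrocyte markers (0.180) and without the low-value filter (0.0757). Oligodendrocyte markers, 10 in number, took 0.909% to 1.53% of reads in brainstem controls and 0.189% to 0.877% in controls of the other regions, and their part in this order was not tested.

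**Figure D4:**
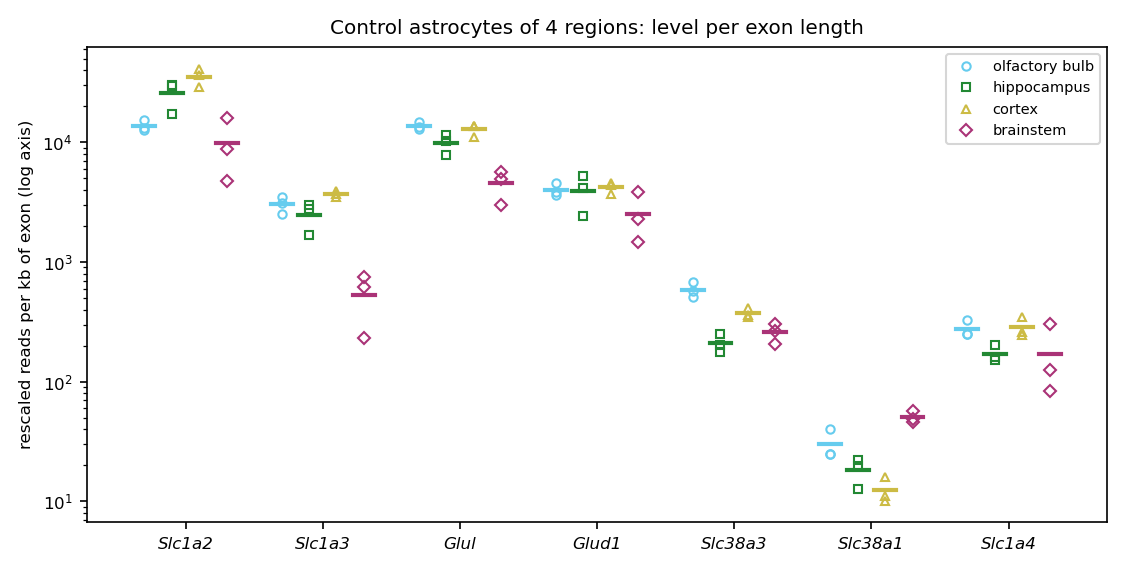
Rescaled reads per kilobase of exon of the 7 genes in the control libraries of the 4 regions, on a log axis, with bars at the means of 3. Slc1a2 and Glul are the most abundant and Slc38a1 the least. By mean, brainstem is lowest for Slc1a2, Slc1a3, Glul, Glud1 and Slc1a4, the last nearly level with hippocampus, and highest for Slc38a1.

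Over the 6 pairs of control regions, 23 of 42 comparisons of a member were called. Cortex against brainstem called all 7 members, 6 higher in cortex and Slc38a1 lower, where 15.3% of 12760 genes were called, 8.47% higher and 6.82% lower. Olfactory bulb against brainstem called 6 (19.5% of all genes), hippocampus against brainstem 4 (7.58%), olfactory bulb against cortex 3 (8.54%), olfactory bulb against hippocampus 2 (10.0%) and hippocampus against cortex 1 (1.19%). The last was Slc38a3, lower in hippocampus (-0.84, limma adjusted p = 0.00445), a call lost without control 3 of cortex (adjusted p = 0.0516). Scaling to the astrocyte markers lost it as well (-0.46, adjusted p = 0.207). These pairs share control libraries. In cortex against brainstem Slc1a4 was lost in 7 of 13 other settings that kept all libraries of both regions. Among them were edgeR (adjusted p = 0.111), DESeq2 (0.0599), total count scaling (0.0660) and the 2 regions fitted alone (0.121). Glud1 was lost there in edgeR (0.0560), and Slc38a3 under the 3 other scalings, as given for its step. Cortex against brainstem lost Glud1 and Slc1a4 without control 2 or 3 of cortex or control 1 or 3 of brainstem (adjusted p of up to 0.221). In olfactory bulb against brainstem Slc1a4 was lost in edgeR (adjusted p = 0.118), DESeq2 (0.0664), without the low-value filter (0.05002) and with the 2 regions fitted alone (0.0859). Glud1 was lost there in edgeR (0.0812) and without the filter (0.0584). Slc1a2 gained a call there with total count scaling (0.00749), scaling to the astrocyte markers (0.000663) and the replicate block (0.0291). That pair lost Glud1 and Slc1a4 without control 2 or 3 of olfactory bulb or control 1 or 3 of brainstem (up to 0.265). It lost Slc1a4 also without control 1 of olfactory bulb, and gained Slc1a2 without control 2 of brainstem (0.000883). Without that library hippocampus against brainstem gained Glud1 and Slc1a4, and Glud1 also without control 1 of hippocampus (at most 0.0154). Calls also changed with the scaling. The ribosomal precursor Rn45s took 17.7% to 20.9% of reads in cortex, 13.5% to 25.7% in brainstem and 0.966% to 2.87% in hippocampus. In olfactory bulb it took 20.8% in labelled knockout 3 and 2.14% to 3.33% in the other libraries. The median of all genes in the genotype comparison of olfactory bulb was -0.13 with total count scaling. It was -0.03 with Rn45s left out of the totals. With total count scaling the median of all genes was 0.40 in hippocampus against cortex, 0.41 in olfactory bulb against cortex and -0.16 in cortex against brainstem. With Rn45s left out of the totals these were 0.12, 0.14 and -0.21, and the part of Rn45s in the calls was not tested. In hippocampus against cortex with total count scaling the call of Slc38a3 was lost (-0.42, adjusted p = 0.0834) and Slc38a1 gained one (0.94, adjusted p = 0.0341).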

How the data were processed

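Astrocytes were sorted by fluorescence from 4 brain regions, and NuGEN Trio libraries were built from 5 ng of RNA extracted with RNeasy Micro columns, per the labels' protocols. The submitters' processing notes list FastQC, STAR 2.5.0a, DESeq2 1.20.0 and mm10 without their roles. The counting tool, annotation and strand setting are not given in the sources used here. What the authors deposited is, for each library, a table of normalised signal under 24421 names. Each value is a whole number of reads times 1 factor per library, within 0.01 read for 100% of values, so reads were recovered. Cortical factors lay at 1.26 to 1.27 times joint median-of-ratios factors of all 24 libraries and the others at 0.994 to 0.998 times.

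Genes with at least 20 in 3 libraries were fitted in limma 3.58.1 (R 4.3.3) as log2 of the value plus 5, with 1 mean per group, an intensity trend, robust moderation and 16 residual degrees of freedom. Adding 5 reduces fold changes of low genes. Genotype comparisons used deposited values (12670 genes) and control regions jointly rescaled reads (12760 genes). Tests were two-sided, with Benjamini-Hochberg adjustment within a contrast at 0.05. The fit was tested on simulated data with 100 genes changed 2-fold and 100 changed 4-fold. Within single regions it recovered 29 to 35 of the former and 59 to 65 of the latter, and in the average 76 and 91. The F test recovered 10 and 50 when the change was in hippocampus only. A missing call therefore does not show that a gene is unchanged. The alternatives, among them edgeR 4.0.16 and DESeq2 1.42.0 on recovered reads and each library left out in turn, are given in the closing section, and 2 of them (total count scaling without Rn45s, and no brainstem libraries) were chosen after seeing the data. Named genes were the 7 members, Nfia, and members of the 2 further lists called in a genotype contrast, by p. The most similar genes were the 3 with the highest Pearson correlation. Some genes named by these rules are not reported here. The members and all gene lists were chosen with earlier results of these data known. Pc was matched as Pcx.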

Additional observations from a re-analysis of the deposited data

How the results depend on the processing

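Counts of called members stayed within 1.5 times the reported ones under most settings. Exceptions were 1 in olfactory bulb (Slc1a3, adjusted p = 0.0225) and 1 in cortex (Slc38a3, adjusted p = 0.0378) when a region was fitted alone, and 1 in brainstem with limma-voom (Slc38a3, adjusted p = 0.0445). Leaving out 1 library gave 0 to 0 members in olfactory bulb, 1 to 1 in hippocampus, 0 to 0 in cortex, 0 to 6 in brainstem, 2 to 4 in the average, 0 to 0 in the F test and 17 to 29 over control regions. By the criterion that every pair correlate over 0.1, replicate numbers were not taken to pair the libraries. This criterion is strict, and failing it does not exclude a pairing. The labels name no animals, so libraries of several regions may share an animal. Deviations of same-numbered libraries of a region correlated at -0.11 to 0.32, over 0.1 in 5 of 12 pairs. Of 24 libraries, 14 correlated best with their own number among the 3 of the other genotype. Across regions of a genotype it was -0.20 to 0.32, over 0.1 in 10 of 36 pairs. With a replicate block 0, 1, 0, 0 and 3 members were called in the 4 regions and the average, 0 in the F test and 26 over control regions. A fit with libraries of the same genotype and number correlated also called 3 members in the average.

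Values whose direction turned were uncalled as reported. With scaling to astrocyte markers these were Glud1 (0.15) and Glul (0.12) in olfactory bulb, Glul (-0.0168) and Slc1a2 (-0.17) in hippocampus and Glul (0.20) in cortex. With limma-voom they were Glud1 in olfactory bulb (0.0201) and cortex (-0.0283), and with total count scaling Glul in cortex (0.0219). Olfactory bulb against cortex turned for Glud1, Slc1a3 and Slc1a4 with total count scaling (0.35, 0.12 and 0.39) and scaling to astrocyte markers (0.26, 0.0414 and 0.31), as did hippocampus against cortex for Glud1 (0.25 and 0.20) and, with the first, Glul (0.0228). Without Rn45s the first pair gave 0.0605 for Glud1 and 0.10 for Slc1a4. Leaving out 1 library moved across 0 the values of Glud1 (-0.0950 to 0.0867) and Glul (-0.0691 to 0.0171) in olfactory bulb, Slc1a2 in hippocampus (-0.16 to 0.24), Glud1 (-0.0919 to 0.0824) and Glul (-0.14 to 0.0163) in cortex, Slc1a2 in brainstem (-0.0069 to 0.87) and in the average (-0.13 to 0.0918), Glud1 in olfactory bulb against hippocampus (-0.21 to 0.33) and hippocampus against cortex (-0.41 to 0.13), Slc1a4 in olfactory bulb against cortex (-0.16 to 0.12) and in hippocampus against brainstem (-0.19 to 0.74).

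Counts over all genes moved by over 1.5 times in several fits. Olfactory bulb went from 11 to 57 with DESeq2, 49 with limma-voom and 92 alone, hippocampus from 318 to 639 with DESeq2, cortex from 41 to 124 with limma-voom and 177 alone, and brainstem from 98 to 32 with edgeR, 168 with DESeq2 and 0 alone. With scaling to astrocyte markers hippocampus gave 169, brainstem 22 and the average 427, from 744. Single libraries moved them as well, and so the shares of all genes given beside the members. Leaving out 1 library gave 3 to 9 in olfactory bulb, 93 (without control 1) to 250 in hippocampus, 17 to 25 in cortex, 17 (without control 1) to 889 (without control 2) in brainstem and 535 to 1289 (without brainstem control 2) in the average, and 0 to 89 in the F test, from 7. Slc38a1 had as few as 75 reads in a library and Slc1a4 128.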

Other observations

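The genes whose levels were most like those of the members over the 24 libraries were sought among 12165 tested genes. Slc1a3 was most like Celf2 (r = 0.97), an RNA-binding protein gene, and Fgd6, and the third gene was Glul (r = 0.96), another member. Slc1a2 was most like Fermt2 (r = 0.96), an integrin activator gene, Lix1 and Phactr3. Glul was most like Tspan7 and Slc1a3, and Glud1 like Gpc5, Mmd2 and Igdcc4. Cdh2 (r = 0.92), the N-cadherin gene, and Robo2 were among the genes most like Slc38a3. Slc38a1 was most like Adra2a (r = 0.94), an adrenergic receptor gene, then Slc22a4 and Plce1, and Slc1a4 like Axl, Sfxn1 and Kcnn3. Among the members themselves, Slc1a2 and Slc38a1 ran opposite (r = -0.75), while Slc1a2 and Slc38a3 had r = -0.00. These are Pearson correlations of log2 of the rescaled value plus 5 over libraries of 4 regions and 2 genotypes, which share regional differences and scaling, and are given as descriptions.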
